A study of Mus musculus with 2 samples.

Results

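MHC class II antigen presentation was followed here through 9 genes: H2-Aa, H2-Ab1, H2-Eb1, Cd74, Ciita, H2-DMa, H2-DMb1, H2-Oa and H2-Ob. They were taken by symbol and are 9 of the 28692 genes counted in each cell, with 1 identifier per symbol. MHC class II molecules carry peptides of proteins that a cell has taken up to its surface, where CD4+ T cells read them. H2-Aa and H2-Ab1 encode the alpha and beta chains of the I-A molecule, and H2-Eb1 encodes the beta chain of I-E. Cd74 encodes the invariant chain, which fills the peptide groove and brings the new molecule to the endosome. There the DM heterodimer, encoded by H2-DMa and H2-DMb1, exchanges the last fragment of the invariant chain for peptide, and the DO heterodimer, encoded by H2-Oa and H2-Ob, holds DM back. Ciita encodes the coactivator on which transcription of these genes depends. B cells, dendritic cells and macrophages are the best known class II cells, DO is best known from B cells, group 3 innate lymphoid cells (ILCs) also carry class II, and T cells of the mouse do not make it.

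Mesenteric CD31+ cells of C57BL/6 mice at postnatal day 8 (P8) were profiled by single-cell RNA sequencing in 2 libraries. CD31 is abundant on endothelial cells and weaker on blood cells, so immune cells were collected as well. The cells came from 3 pooled mice per library, 1 library was control, and the other was from Flcn iΔEC mice, in which Flcn, the gene of the tumor suppressor folliculin, is flanked by loxP sites and removed by a Cre recombinase that the Cdh5 promoter drives in blood and lymphatic endothelium. Mice of both libraries received 4 subcutaneous injections of 40 µg 4-hydroxytamoxifen, the first at P2, the next at P3.5 and P5 and the last at P6.5, and the alleles of the control mice are not given in the sources used here. With 1 library per genotype no test between genotypes was possible, and values are given side by side, the control library first.

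The control library held 6814 cells and the Flcn iΔEC library 4459, with 64639756 and 60805779 unique molecular identifiers (UMIs, each counting 1 captured RNA molecule) and medians of 7283 and 8587 UMIs per cell. The 9 genes made up 0.595% and 0.455% of all UMIs. The targeted gene Flcn was at 9.08 and 9.33 CPM (UMIs of the gene per 1000000 UMIs of the same cells) in the endothelial cells, but whether the counted 3′ end lies in the deleted part is not given in the sources used here, so this level does not check the labels. Xist, transcribed from the inactive X chromosome, was at 0.139 and 1044 CPM, and the Y-linked Ddx3y was at 108 and 0.0493 CPM. Sex and genotype therefore cannot be told apart in any comparison between the libraries. The libraries shared 6 cell barcodes.

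The class II genes share promoter elements, the X box and the Y box, which bind the factors that recruit Ciita. They are shown because Ciita acts through them on the other genes described here. Cd74 was left out of this view, and H2-Ab1 and Ciita had no entry. The other 6 of the 9 genes were matched in RefSeq promoter sequences of the GRCm38.p6 build. In 5 of these the letters GNAAC, part of the X box, stood 23 to 26 bases before the letters TGATTGG, the Y box. Capitals mark these letters in the stretches that follow, each printed 5′ to 3′ on the strand of its gene.
H2-Aa: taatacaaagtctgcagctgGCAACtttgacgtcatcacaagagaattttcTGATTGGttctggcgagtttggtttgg
H2-Eb1: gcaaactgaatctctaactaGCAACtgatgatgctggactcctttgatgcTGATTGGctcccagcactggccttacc
H2-DMb1: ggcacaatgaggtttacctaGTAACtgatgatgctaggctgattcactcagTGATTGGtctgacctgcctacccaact
H2-Oa: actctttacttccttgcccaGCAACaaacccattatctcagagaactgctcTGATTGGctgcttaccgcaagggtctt
H2-Ob: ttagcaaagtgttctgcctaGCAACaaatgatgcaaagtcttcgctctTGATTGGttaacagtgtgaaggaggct

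The stretch of H2-Aa lies at chr17:34287847-34287924 on the minus strand. Those of H2-Eb1, H2-DMb1, H2-Oa and H2-Ob lie on the plus strand at chr17:34305756-34305832, chr17:34153077-34153154, chr17:34092283-34092360 and chr17:34238798-34238872. The Y box ended between 38 (H2-Oa) and 56 (H2-DMb1) bases before the start annotated in RefSeq. For H2-Oa and H2-DMb1 the gene coordinates printed here, which are those of GENCODE, begin upstream of that start. Neither of the 2 annotated starts of H2-DMa had the pair in the 250 bases before it, and neither held TGATTGG. Across all 32851 promoters of the same length, searched on both strands, 29 (0.0883%) held the pair and 2375 (7.23%) held TGATTGG. The spacing was set from these 5 genes, so their share of matches is a description. On GRCm38 the genes themselves lie on chromosome 17, from H2-Oa (chr17:34092340-34095234) over H2-DMa (chr17:34119541-34139101), H2-DMb1 (chr17:34153072-34160230), H2-Ob (chr17:34238903-34254414), H2-Ab1 (chr17:34257689-34269419) and H2-Aa (chr17:34282744-34287823) to H2-Eb1 (chr17:34305867-34316674), while Ciita lies at chr16:10480059-10528418. The position of Cd74 is not given here. H2-DMa overlaps another annotated gene on its own strand, so reads from the overlap are uncertain.

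Cells were clustered without the class II genes and named by fixed markers. This gave 2435 and 1375 B-like cells, 93 and 54 myeloid-like cells, 276 and 223 ILC-like cells, 160 and 120 natural killer (NK) and gamma-delta T-like cells, and 2567 and 1122 T-like cells. Endothelial cells were those with at least 2 UMIs of Cdh5, which encodes VE-cadherin, and none of the B cell gene Cd79a. There were 468 and 721 of them, 1189 in all, and they fell into 12 clusters. In each class the UMIs of H2-Aa, H2-Ab1, H2-Eb1 and Cd74 were added up and are called the class II sum. Intervals are exact 95% intervals and cover counting error only.

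The class II sum was highest in B-like, myeloid-like and ILC-like cells. It was 14518 CPM (14462 to 14575) and 15879 CPM (15807 to 15952) in B-like cells, 21065 and 6162 CPM in myeloid-like cells, and 14021 CPM (13876 to 14167) and 10829 CPM (10684 to 10976) in ILC-like cells. It was 294 CPM (286.4 to 301.3) and 277 CPM (266.6 to 288.2) in T-like cells, which served as the background within each library. NK and gamma-delta T-like cells were nearer to that background, at 1057 and 619.6 CPM. Endothelial cells as a whole were at 1324 and 861.6 CPM.

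**Figure D1:**
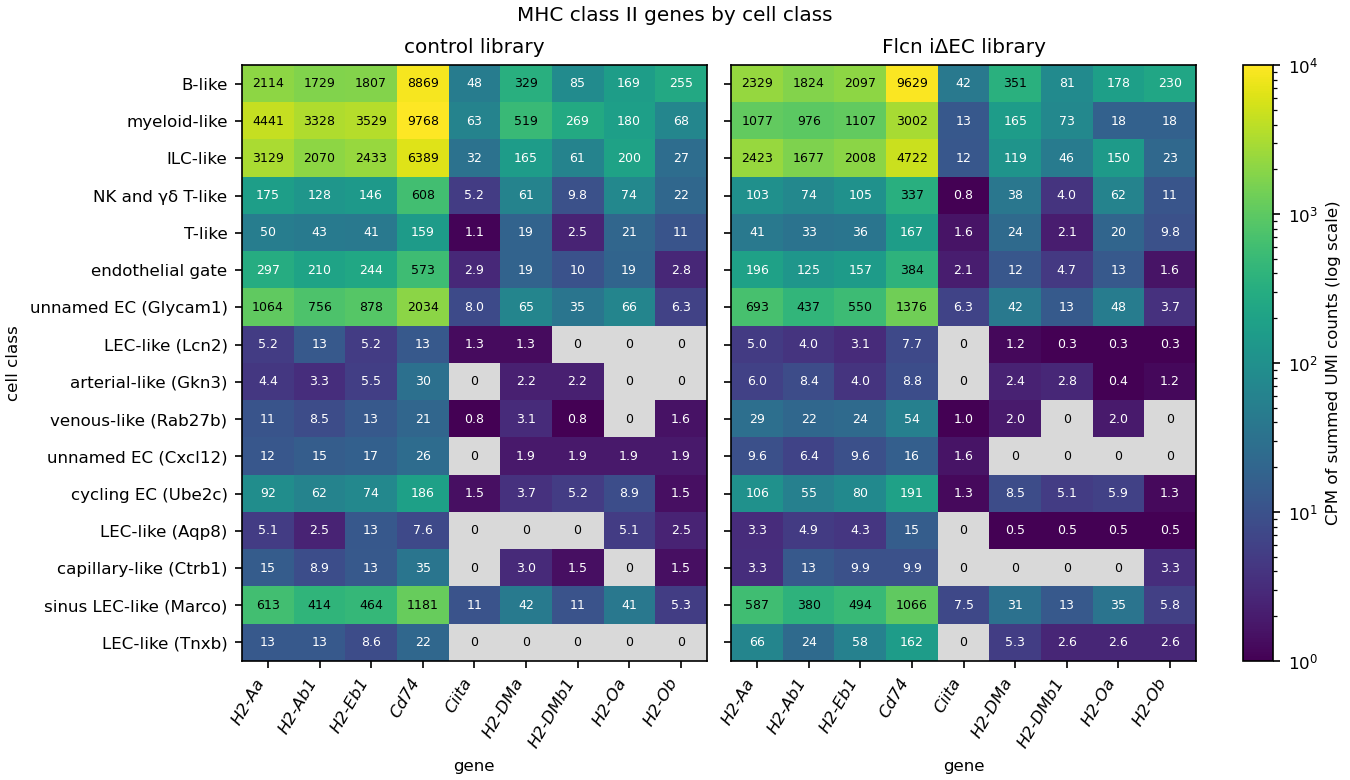
Heat map of the level of each of the 9 genes (CPM on a log color scale, grey for 0) in each class and endothelial cluster (EC, endothelial cells), with the control and the Flcn iΔEC library side by side. B-like, myeloid-like and ILC-like cells had the highest values for Cd74 (8869, 9768 and 6389 CPM in the control library), and among the endothelial clusters those led by Glycam1 (2034 CPM) and Marco (1181 CPM) stood above the others.

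The background in T-like cells was not evenly spread. Of T-like cells, 54.9% and 65.6% had no UMI of the class II sum, and the 128 and 56 cells with the most (the highest 5%) held 78.8% and 85.5% of these UMIs. T-like cells with no UMI of 11 B cell, myeloid and ILC genes, a filter chosen after seeing the data, were at 78.5 and 52.8 CPM, and those with at least 1 such UMI at 997 and 1178 CPM. The T-like cluster led by Dapl1 was at 104 and 120.5 CPM, that led by Cd8b1 at 599.8 and 446 CPM, and that led by Tnfrsf4 at 656 and 582 CPM. After thinning to 2000 UMIs, 17% and 11.9% of T-like cells had a class II UMI, against 99.5% and 99.3% of B-like, 85.8% and 79.6% of ILC-like and 78.3% and 55.2% of myeloid-like cells. Cells under 2000 UMIs were left out of these shares, 32 and 17 of the T-like, 19 and 10 of the B-like and 8 and 2 of the ILC-like cells. Of the myeloid-like cells 47 and 25 were left out, so that their shares rest on 46 and 29 cells. Unthinned shares stood at 45.2% and 34.4%, 99.9% and 99.6%, 94.6% and 88.8%, and 77.4% and 74.1%. The median depths before thinning were 7471 and 7721 UMIs in T-like, 6263 and 7722 in B-like, 8522 and 7451 in ILC-like, and 1911 and 2260 in myeloid-like cells.

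B-like cells carried all 9 genes far above T-like cells. The I-A chains H2-Aa and H2-Ab1 were at 2114 and 2329 CPM and at 1729 and 1824 CPM, and the I-E chain H2-Eb1 was at 1807 and 2097 CPM. The invariant chain Cd74 was the most abundant, at 8869 and 9629 CPM, and the coactivator Ciita was the scarcest, at 47.5 and 41.8 CPM. Since a 3′ kit counts the ends of transcripts, levels were compared between genes without correction for length.

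The genes that edit the peptide were at intermediate levels in B-like cells. H2-DMa was at 329 and 351 CPM and H2-DMb1 at 84.8 and 80.7 CPM. H2-DMb1 and H2-DMb2 are near-identical neighbours, so how their reads were divided is uncertain. H2-Oa was at 169 and 178 CPM and H2-Ob at 255 and 230 CPM, 23.5 and 23.5 times the T-like level. All 9 genes were at least 2-fold above T-like cells in both libraries, whereas 12.7% and 11.5% of all genes were. Genes with at least 50 UMIs in the compared cells were counted, here and in the comparisons that follow, after 1 UMI was added to each side. On the log2 scale the median ratio was 5.33 and 5.22 over the 9 genes, and 0.08 and 0.06 over all genes.

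The B-like cells were not uniform. Of the 3 B-like clusters, those led by Fcer2a (1501 and 795 cells) and by Iglc1 (911 and 560 cells) held most of the class in both libraries. Their class II sum was 16600 and 17837 CPM in the first and 12495 and 14293 CPM in the second. A small cluster led by Vpreb1, a gene of the pre-B cell receptor, had 23 and 20 cells and only 4241 and 5083 CPM. There the median cell had 4 and 3.5 class II UMIs, against 101 and 131 over all B-like cells. In the control cells of this cluster Ciita and H2-DMb1 had 0 UMIs, and a limit of 3 UMIs stands at 24.7 CPM, whereas H2-Ob was at 148 and 134 CPM and H2-Oa at 65.8 and 63.2 CPM in the same cluster. In the Flcn iΔEC cells of the cluster Ciita had 4 UMIs and H2-DMb1 had 7.

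ILC-like cells were near the B-like level for the chains and far from it for H2-Ob. Their markers were those of group 3 ILCs, with 9 of 10 fixed markers raised at least 2-fold in the cluster, among them Il22, a cytokine gene, at 482.5 and 486 CPM. H2-Aa was at 3129 and 2423 CPM, above the B-like level in both libraries, and H2-Ab1 and H2-Eb1 were at 2070 and 1677 CPM and at 2433 and 2008 CPM. Cd74 was at 6389 and 4722 CPM, below the B-like level. Ciita was at 32.1 CPM (82 UMIs) and 12.2 CPM (24 UMIs), against 1.08 and 1.63 CPM in T-like cells, which is 29.6 times (18.3 to 49.9) and 7.48 times (3.77 to 15.3) the background.

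Of the editing genes, H2-DMa was at 165 and 119 CPM in ILC-like cells and H2-DMb1 at 60.8 and 46.2 CPM. H2-Oa was at 199.5 and 150.4 CPM, close to the B-like level, but its partner H2-Ob was at 27 and 22.9 CPM. H2-Ob was thus 2.48 times (1.87 to 3.27) and 2.34 times (1.6 to 3.38) the T-like level, and H2-Oa 9.41 and 7.57 times. In the control library all 9 genes were at least 2-fold above T-like cells, against 21.6% of all genes. In the Flcn iΔEC library 8 genes had enough counts and all 8 were at least 2-fold above, against 20.7% of all genes, while Ciita, with 24 UMIs there and 15 in T-like cells, did not enter the count. Members had a median log2 ratio of 4.84 and 4.62, and all genes 0.37 and 0.41.

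The ratio of H2-Oa to H2-Ob differed between B-like, ILC-like and T-like cells. It was 0.661 (0.631 to 0.692) and 0.775 (0.731 to 0.821) in B-like cells, 7.38 (5.73 to 9.63) and 6.58 (4.79 to 9.21) in ILC-like cells, and 1.95 (1.65 to 2.3) and 2.03 (1.57 to 2.65) in T-like cells. The ratio of Cd74 to H2-Aa also differed, at 4.2 (4.15 to 4.24) and 4.13 (4.08 to 4.19) in B-like and 2.04 (1.99 to 2.1) and 1.95 (1.88 to 2.02) in ILC-like cells. The intervals of B-like and ILC-like cells, which cover counting error only, did not overlap for either ratio in either library. H2-Oa was also seen in NK and gamma-delta T-like cells, at 74.4 and 62.4 CPM, and in the T-like cluster led by Cd8b1, at 42.3 and 40.6 CPM, while H2-Ob was at 21.9 and 11.2 CPM and at 14.6 and 11.9 CPM there. UMIs in NK and gamma-delta T-like cells numbered 129 and 78 for H2-Oa and 38 and 14 for H2-Ob. An excess of H2-Oa over H2-Ob was thus not particular to ILC-like cells. In NK and gamma-delta T-like cells, whose cluster was also led by the mast cell genes Cma1 and Cpa3, 8 of 8 and 5 of 7 members with enough counts were at least 2-fold above T-like cells, against 14.2% and 12.5% of all genes.

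**Figure D2:**
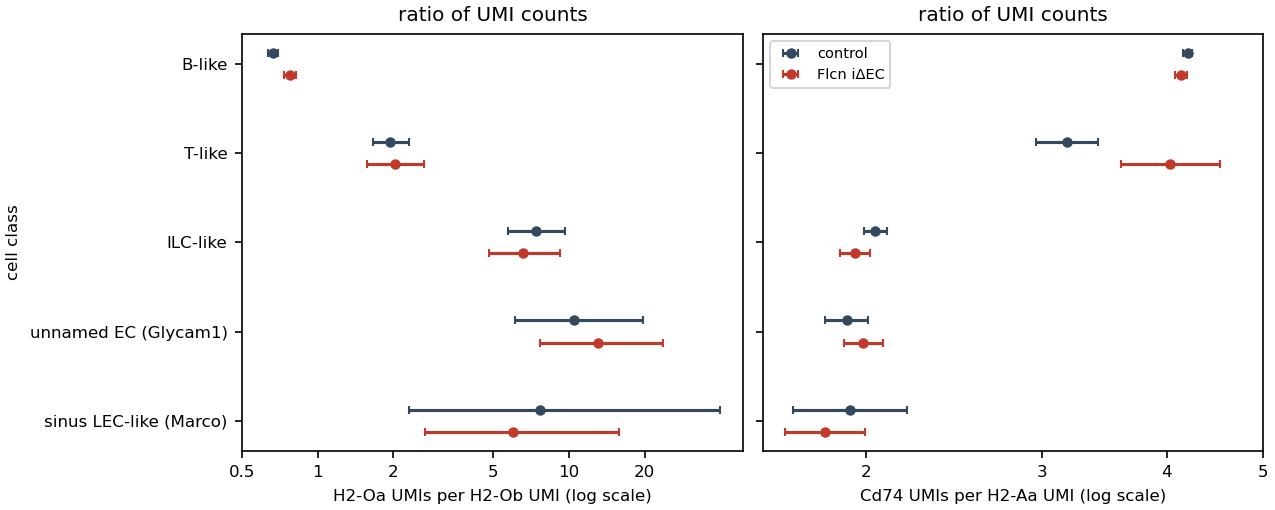
Ratios of UMIs of H2-Oa to H2-Ob and of Cd74 to H2-Aa (log axes) in each class and library, with points for the ratio and bars for exact 95% counting intervals. B-like cells lie below 1 for H2-Oa to H2-Ob (0.661 and 0.775), and ILC-like cells (7.38 and 6.58) lie with the Glycam1 cluster of endothelial cells (10.5 and 13).

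B cell RNA was present in ILC-like cells at a low level. Ms4a1, the CD20 gene, was at 25.5 and 21.9 CPM in ILC-like cells, 1042 and 965 CPM in B-like cells and 14.1 and 13.2 CPM in T-like cells, and the 8 B cell markers together were at 312 and 319.7 CPM, 6815 and 6534 CPM, and 124.5 and 102 CPM. ILC-like cells with no UMI of Cd79a, Cd79b and Ms4a1 (125 and 113 cells) had a class II sum of 11908 and 11095 CPM, and those with such a UMI (151 and 110 cells) 15410 and 10608 CPM. In the Flcn iΔEC library the sum was as high without B cell UMIs as with them, and in the control library it was lower without them.

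Within the ILC-like cells the sum varied with Ccr6, a chemokine receptor gene of lymphoid tissue inducer cells. Cells with a Ccr6 UMI (199 and 173) had medians of 126 and 55 class II UMIs and levels of 14886 and 11533 CPM. Cells without one (77 and 50) had medians of 30 and 11.5 UMIs and 11038 and 7578 CPM. Cells with a Ccr6 UMI were also deeper, with medians of 9023 and 7856 UMIs in all against 7675 and 7011. Over all ILC-like cells the median was 108 and 37 class II UMIs, and 75% and 62.3% of cells had at least 10.

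Myeloid-like cells were few, shallow and of several kinds, and most of their class II UMIs came from 1 sub-cluster. In the control library H2-Aa was at 4441, H2-Ab1 at 3328, H2-Eb1 at 3529 and Cd74 at 9768 CPM, and in the Flcn iΔEC library they were at 1077, 976.5, 1107 and 3002 CPM. H2-DMa was at 519 and 165 CPM and H2-DMb1 at 269 and 72.6 CPM. H2-Oa was at 180.0 and 17.5 CPM, H2-Ob at 68.2 and 17.5 CPM, and Ciita at 62.5 CPM (33 UMIs) and 12.5 CPM (5 UMIs). All 9 genes in the control library and 6 of the 7 with enough counts in the Flcn iΔEC library were at least 2-fold above T-like cells, against 20.3% and 22.2% of all genes. The exception was H2-Oa, at 0.882 times the T-like level, while H2-Ob, at 1.79 times (0.701 to 3.85) with 7 UMIs, passed 2-fold only with the added UMI.

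Of the 7 myeloid sub-clusters, the one led by Mcpt8, a basophil protease gene, with Siglech and Cd209a among its leading genes, had 23 and 8 cells and a class II sum of 26402 and 12806 CPM. Its median cell had 351 and 42 class II UMIs. The neutrophil-like sub-cluster (7 and 6 cells) was at 1037 and 20 CPM, and the sub-cluster led by F10 (3 and 8 cells) at 262 and 1555 CPM. The sub-clusters led by Marco and Ccl5 were at 19863 and 12500 CPM and at 15027 and 11450 CPM. Those led by Bcl2l14 and Nusap1 were at 12041 and 5551 CPM and at 10887 and 14546 CPM. The median depths of these last sub-clusters over both libraries were 723 to 2076 UMIs, against 14862 in the Mcpt8 sub-cluster. The median over all myeloid-like cells was only 6 and 3 class II UMIs, and the highest cell had 1666 and 952. Without the Mcpt8 sub-cluster the class stood at 8713 and 2831 CPM.

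In endothelial cells the class II sum was concentrated in 2 of the 12 clusters. The cluster led by Glycam1, which encodes a ligand of L-selectin made in high endothelial venules, had 65 and 104 cells and a sum of 4731 and 3056 CPM. A cluster named lymph node sinus lymphatic endothelial-like, led by Marco, had 16 and 37 cells and 2672 and 2527 CPM. The T-like background in the same libraries was 294 and 277 CPM. The Glycam1 cluster was left unnamed, because 5 of 8 markers of high endothelial venules but also 9 of 10 ILC markers were raised in it. In the sinus-like cluster 5 of 6 sinus markers and 4 of 10 ILC markers were raised.

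The other endothelial clusters mostly stood below the level of all T-like cells. The lymphatic endothelial (LEC)-like cluster led by Lcn2 (39 and 127 cells) was at 36.4 and 19.8 CPM, and the LEC-like cluster led by Aqp8 (18 and 76 cells) at 27.9 and 27.7 CPM. The arterial-like cluster (46 and 103 cells) was at 43.1 and 27.2 CPM, the cluster led by Cxcl12 (96 and 38 cells) at 70.1 and 41.6 CPM, and the capillary-like cluster (54 and 20 cells) at 72.4 and 36.2 CPM. The venous-like cluster (57 and 88 cells) was at 53.6 and 130.3 CPM. Exceptions were the cycling cluster (43 and 51 cells), at 415 and 432 CPM, and in the Flcn iΔEC library 2 clusters in which 1 cell held most of the sum. These were the LEC-like cluster led by Tnxb (14 and 19 cells), at 55.9 and 309.8 CPM with 90.6% of the latter in 1 cell, and the cluster led by Cd3d (16 and 6 cells), at 72.5 and 1198 CPM. A cluster led by Hba-a1 had 4 and 52 cells and 35.8 and 105 CPM. The order depends on which T-like cells are taken, since against those free of the 11 other cell type genes (78.5 and 52.8 CPM) the venous-like and Hba-a1 clusters of the Flcn iΔEC library stood above.

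Single members had few UMIs in these clusters. Cd74 was at 13 and 7.75 CPM in the Lcn2 cluster, 29.8 and 8.8 CPM in the arterial-like, 25.6 and 16 CPM in the Cxcl12, 7.61 and 15.2 CPM in the Aqp8 and 21 and 54.4 CPM in the venous-like cluster, against 159 and 167 CPM in T-like cells. H2-DMa had 0 to 6 UMIs in each of these 5 clusters and either library, H2-Oa 0 to 4 and H2-Ob 0 to 3. In the Glycam1 cluster 7 of 8 members with enough counts were at least 2-fold above T-like cells in the control library and 6 of 8 in the Flcn iΔEC library, against 31.4% and 32.7% of all genes. There H2-Ob was at 6.25 and 3.66 CPM, against 10.9 and 9.78 CPM in T-like cells. In the sinus-like cluster 6 of 8 and 4 of 7 were above, against 33.4% and 30% of all genes.

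Over all gated endothelial cells 6 and 5 of the 9 members were at least 2-fold above T-like cells, against 39.5% and 40.8% of all genes. These counts rest on 9 genes and were not tested against that share. H2-Ob was at 2.76 and 1.62 CPM, below the T-like level. The median log2 ratio of the 9 members was 1.85 and 1.12, and that of all genes 0.64 and 0.68. For the class II sum the log2 ratio was 2.17 and 1.64. Without called doublets it was 3.78 and 2.96, but few gated cells were called, and doublets were taken out of the T-like cells too. The part of the T-like background in this rise was not tested.

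The member profile of the Glycam1 cluster resembled that of ILC-like cells in its ratios. H2-Aa was at 1064 and 693 CPM, H2-Ab1 at 756 and 437 CPM, H2-Eb1 at 877.5 and 550.5 CPM and Cd74 at 2034 and 1376 CPM. Ciita was at 8.04 and 6.34 CPM (18 and 26 UMIs). H2-DMa was at 65.2 and 41.7 CPM and H2-DMb1 at 35.3 and 13.4 CPM. H2-Oa was at 65.7 and 47.5 CPM and H2-Ob at 6.25 and 3.66 CPM, a ratio of 10.5 (6.06 to 19.7) and 13 (7.69 to 23.7), and Cd74 to H2-Aa was 1.91 and 1.99. In the sinus-like cluster H2-Oa to H2-Ob was 7.67 (2.32 to 39.9) and 6 (2.67 to 15.8) and Cd74 to H2-Aa was 1.92 and 1.82. These intervals overlapped those of ILC-like cells for H2-Oa to H2-Ob and not those of B-like cells. The gate had left out every cell with a Cd79a UMI, and its part in the distance from B-like cells was not tested. Cells of endothelial clusters that failed the gate had H2-Oa at 41.7 and 17 CPM and H2-Ob at 27.5 and 9.09 CPM.

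ILC markers were also raised in the Glycam1 and sinus-like clusters. The 10 ILC markers together were at 1984 and 1668 CPM in the Glycam1 cluster, 44.4% and 40.4% of their level in ILC-like cells, and at 1911 and 1303 CPM in the sinus-like cluster. In the Lcn2 LEC-like cluster they were at 171.5 and 119.6 CPM, with 8 and 3 of 10 at 0. A set of 5 narrower ILC genes, chosen after seeing the data (Il23r, Ccr6, Il22, Cxcr5 and Il7r), was at 696 and 685.5 CPM in the Glycam1 cluster, 788 and 517 CPM in the sinus-like cluster, 4.66 and 10.8 CPM in the venous-like cluster and 0 and 2.17 CPM in the Lcn2 cluster. Of these 5, Cxcr5 was at 102 and 75.75 CPM in B-like cells, above its 29.39 and 27.45 CPM in ILC-like cells. The others were lower in B-like than in ILC-like cells. UMIs of the set numbered 5425 and 4251 in ILC-like cells. In the more numerous B-like and T-like cells they numbered 2630 and 1605, and 2521 and 1458. Ptprc, the gene of the pan-leukocyte protein CD45, was at 151 and 94.3 CPM in the Glycam1 cluster and 102 and 60.6 CPM in the sinus-like cluster, against 338 and 297 CPM in ILC-like cells and 7.77 and 2.94 CPM in the venous-like cluster. Macrophage markers were at 104.5 and 76.5 CPM in the Glycam1 cluster, with 4 and 3 of 12 at 0, against 4698 and 15311 CPM in myeloid-like cells. Ms4a1 was at 1.79 and 1.46 CPM there, in cells that the gate had required to lack Cd79a. The part of these markers in the class II level of both clusters was not tested.

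Cell by cell, class II and the 5 ILC genes were found in the same barcodes. Of the gated cells, 55 and 99 had at least 10 class II UMIs, and they held 96.3% and 96.6% of all class II UMIs of the gate. An ILC gene UMI was present in 52 of the 55 (94.5%) and in 99 of the 99, against 48 of 413 (11.6%) and 51 of 622 (8.2%) of the other gated cells. Gated cells with no UMI of the 5 genes (368 and 571) had medians of 1 and 0 class II UMIs, those with 1 to 9 (41 and 55) medians of 1 and 2, and those with at least 10 (59 and 95) medians of 152 and 110. The last group held 85% and 81.3% of the class II UMIs of the gate. It was also deeper, with median totals of 36462 and 38275 UMIs against 13325 and 21844 in cells with none. Its median of Ptprc was 5 and 3 UMIs against 0 and 0, and its median of Cdh5 was 17 and 14 UMIs against 10.5 and 11. Doublet calling marked 3 and 2 gated cells in all. Whether a barcode with Cdh5, Ptprc and ILC genes held RNA of 1 cell or of more cannot be told apart in these counts.

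Within the Glycam1 cluster the cells with no UMI of the 5 ILC genes (12 and 10) had medians of 3 and 0.5 class II UMIs, and those with at least 10 (45 and 79) had medians of 173 and 112. Of the 12 control cells, 1 had 839 class II UMIs. In the sinus-like cluster cells with none (7 and 22) had medians of 4 and 2, and cells with at least 10 (8 and 9) had medians of 178.5 and 123. In the cycling cluster cells with none (31 and 44) had medians of 1 and 1, and cells with at least 10 (6 and 2) had medians of 50 and 127. The class II UMIs per UMI of the 5 ILC genes were 6.59 and 5.01 in ILC-like cells, 6.8 and 4.46 in the Glycam1 cluster and 3.39 and 4.89 in the sinus-like cluster. In the cycling cluster they were 2.79 and 12.3.

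**Figure D3:**
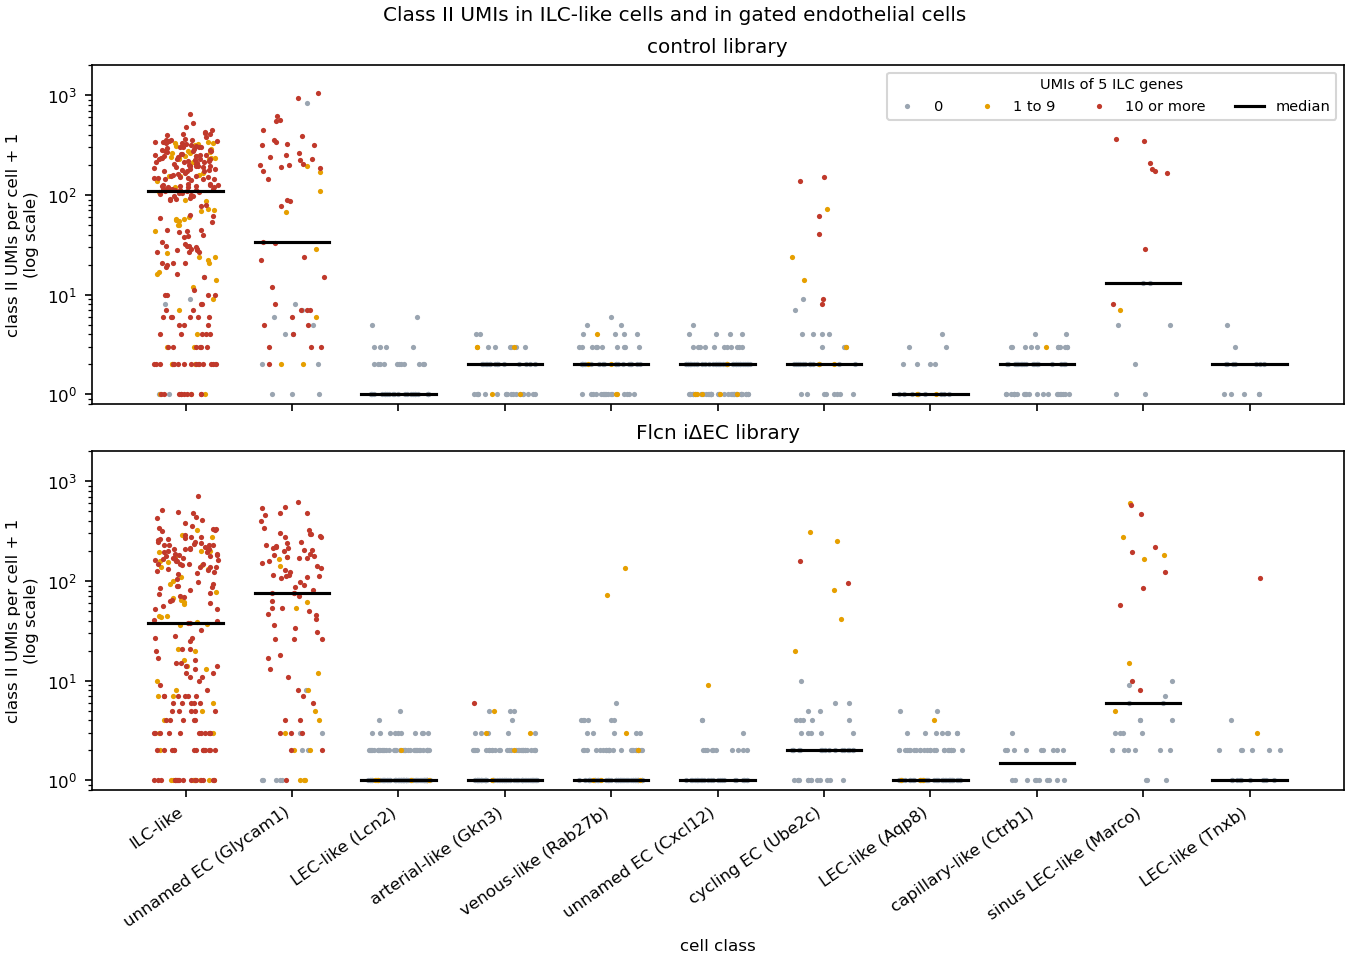
Class II UMIs plus 1 per cell (log axis) in ILC-like cells and in the endothelial clusters of each library, each point a cell colored by its UMIs of the 5 ILC genes, with a line at the median. In the Glycam1 cluster the medians are 33 and 74 UMIs, and most cells high in class II there and in the Marco cluster had UMIs of ILC genes, while 1 control cell with 839 class II UMIs had none.

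Without the cells that had a UMI of the 5 ILC genes, endothelial class II was below the level of all T-like cells. The class II sum of those 368 and 571 cells was 193 and 33.5 CPM, and 61.7 CPM in the control library when the cell with 839 of the 1231 UMIs was left out. T-like cells that were likewise freed of other cell type genes stood at 78.5 and 52.8 CPM, so that the control value was above them with that cell and below them without it, and the Flcn iΔEC value was below. Cd74 was at 90.3 and 18.9 CPM in these endothelial cells, H2-Oa at 2.2 and 0.417 CPM and H2-Ob at 1.41 and 0.556 CPM. The thinned share of gated endothelial cells with a class II UMI was 22.9% and 19.8%, against 17% and 11.9% of T-like cells, and before thinning it was 65.4% and 57.4% at median depths of 15011 and 23324 UMIs.

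Between the libraries, the class II sum of B-like cells in Flcn iΔEC was 1.094 times the control level (1.087 to 1.1). Single members ranged from 0.879 for Ciita to 1.16 for H2-Eb1, and none of the 9 was past 2-fold in either direction, against 1.39% of all genes higher and 1.05% lower. The median log2 ratio was 0.08 over the members and -0.09 over all genes.

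In ILC-like cells the sum in Flcn iΔEC was 0.772 times the control level (0.759 to 0.786). Ciita was the 1 member at least 2-fold lower, at 0.38 times (0.23 to 0.604), against 0.933% of all genes. The other members lay between 0.719 times for H2-DMa and 0.846 times for H2-Ob, whose interval (0.568 to 1.25) held 1. The median log2 ratio was -0.39 over the members and -0.03 over all genes. The ILC-like cells without B cell UMIs stood at 11908 and 11095 CPM.

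Of the 3 classes rich in class II, myeloid-like cells differed most, at 0.292 times the control level (0.28 to 0.306). All 7 members with enough counts were at least 2-fold lower, against 4.55% of all genes, with H2-Oa lowest at 0.0974 times (0.0381 to 0.208), while Ciita and H2-Ob had too few UMIs to be counted. The median log2 ratio was -1.77 over these members and 0.05 over all genes. The libraries drew their myeloid-like cells from different sub-clusters, with 32 and 9 cells from that led by Marco, 23 and 8 from that led by Mcpt8, 14 and 11 from that led by Ccl5 and 3 and 8 from that led by F10. The F10 sub-cluster, low in class II, held 26720 and 167856 of the 527642 and 399381 UMIs of the class. Within sub-clusters the sum in Flcn iΔEC was 0.629 times control for Marco, 0.485 for Mcpt8, 0.762 for Ccl5 and 0.461 for Bcl2l14. It was 1.34 for Nusap1 and 5.935 for F10. In neutrophil-like cells it was 0.0193, on 53 and 1 UMIs. The Mcpt8 sub-cluster itself differed between the libraries, with Lyz2 at 285 and 4049 CPM and the 3 C1q genes together at 1604 and 5113 CPM. The part of its make-up in the ratio was not tested. Without the Mcpt8 sub-cluster the class II sum of myeloid-like cells was 8713 and 2831 CPM. As the mean of the cells' own CPM the log2 ratio of the sum was -0.58, against -1.77 for the summed counts.

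In gated endothelial cells the sum in Flcn iΔEC was 0.651 times the control level (0.636 to 0.666), and in the Glycam1 cluster 0.646 times (0.629 to 0.663). The direction in the gate depended on the Glycam1 and sinus-like clusters, since the log2 ratio was -0.62 with them and 0.08 without them, and as UMIs per cell it was -0.19. H2-DMb1 was the 1 member at least 2-fold lower in each, at 0.462 times (0.345 to 0.618) in the gate and 0.38 times (0.264 to 0.543) in the cluster, against 4.53% and 2.01% of all genes. The median log2 ratio of the members was -0.63 and -0.65, and that of all genes -0.14 and -0.07. In the sinus-like cluster none of the 6 members with enough counts was past 2-fold, against 3.62% of all genes lower, and the sum was 0.946 times the control level (0.889 to 1.01).

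Among gated cells without ILC gene UMIs, those of the Glycam1 and sinus-like clusters included, the sum was 0.174 times the control level (0.156 to 0.193), a log2 ratio of -2.53. It was -0.88 without the control cell of the Glycam1 cluster that had 839 class II UMIs. In the venous-like cluster 3 of 4 members were at least 2-fold higher in Flcn iΔEC, against 2.64% of all genes, and 209 of the 266 UMIs (78.6%) were in 7 cells that had 1 to 9 UMIs of the ILC genes. The median venous-like cell without ILC gene UMIs had 1 and 0 class II UMIs. In the Lcn2, Aqp8, arterial-like, Cxcl12 and capillary-like clusters no member had enough counts to be compared.

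**Figure D4:**
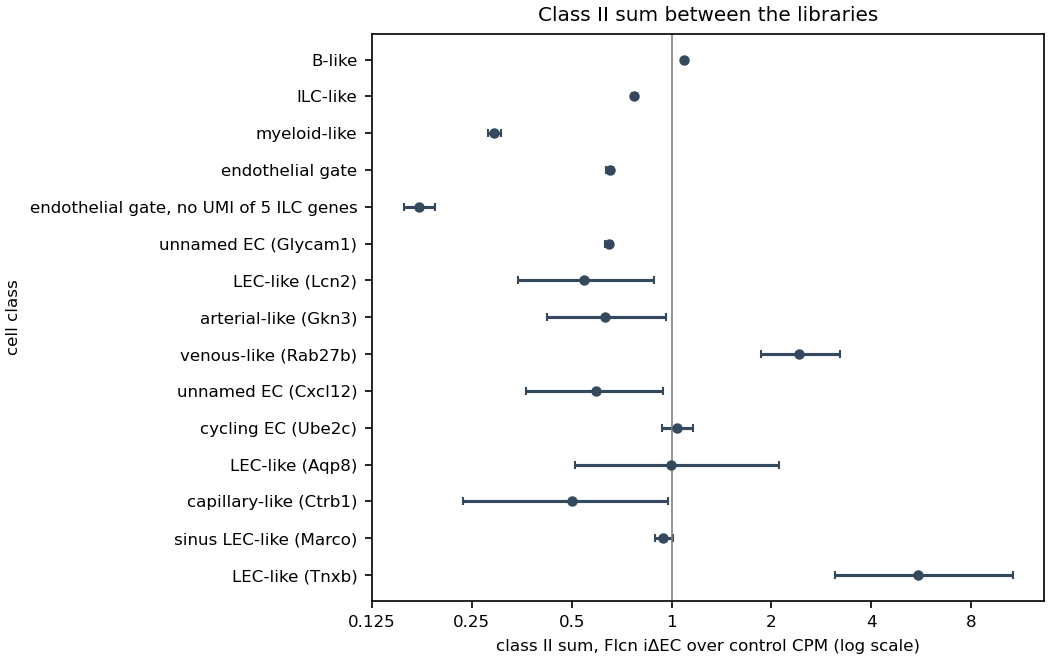
Ratio of the class II sum in Flcn iΔEC to that in control (CPM over CPM, log axis) for each class and endothelial cluster, with bars for exact 95% counting intervals. The ratio is 1.094 in B-like, 0.772 in ILC-like, 0.651 in gated endothelial and 0.292 in myeloid-like cells, and the high value of the Tnxb cluster rests on 1 cell with 90.6% of the UMIs.

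Other genes of the pathway set the classes apart as well. The other class II genes H2-DMb2 and H2-Eb2 were at 228 and 259 CPM and at 29.6 and 28.9 CPM in B-like cells, at 128 and 102 CPM and at 33.3 and 17.3 CPM in ILC-like cells, and at 4.98 and 5 CPM and at 0.69 and 0.869 CPM in T-like cells. Of 16 genes of class II processing and regulation with enough counts, 10 were at least 2-fold higher in B-like than in T-like cells in both libraries, among them the endosomal thiol reductase Ifi30, the protease Ctss and the RFX subunit Rfx5. In ILC-like cells 6 of 15 and 4 of 13 were higher and 1, Irf4, was lower in both, against 7.13% and 6.58% of all genes lower. In myeloid-like cells 10 of 16 and 7 of 14 were higher. The shares of all genes that were higher were 12.7% and 11.5% in B-like, 21.6% and 20.7% in ILC-like and 20.3% and 22.2% in myeloid-like cells.

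ILC-like and B-like cells differed in costimulation and in endosomal enzymes. Cd86, which encodes a ligand of CD28, was at 73.4 and 51 CPM in B-like cells, 3.92 and 3.05 CPM in ILC-like cells and 9.91 and 12.7 CPM in T-like cells. Ifi30 was at 487 and 613 CPM in B-like, 61.5 and 48.8 CPM in ILC-like and 36.6 and 28.6 CPM in T-like cells. Ctsl, the gene of cathepsin L, was at 142 and 192 CPM in ILC-like and 20.8 and 43.4 CPM in T-like cells, and Cd83, whose protein stabilizes class II at the surface, at 231 and 293 CPM and at 13.8 and 20.4 CPM. Of the costimulation genes, 5 of 5 were higher in B-like than in T-like cells in both libraries, and 2 of 4 (Pdcd1lg2 and Icosl) were higher and 1 of 4 (Cd86) lower in ILC-like cells. In myeloid-like cells 3 of 4 and 2 of 2 were higher. The shares of all genes were 12.7% and 11.5% higher in B-like cells, 21.6% and 20.7% higher and 7.13% and 6.58% lower in ILC-like cells, and 20.3% and 22.2% higher in myeloid-like cells.

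Of the interferon gamma axis and of class I, at most 3 genes of a list were at least 2-fold higher than in T-like cells in B-like, ILC-like or myeloid-like cells. In B-like cells 0 of 8 interferon gamma genes were higher and 1 (Ifng) was lower than in T-like cells, and 0 of 9 class I genes were higher and 1 (Nlrc5, the coactivator of class I) was lower, against 10.7% and 9.05% of all genes lower. In ILC-like cells 3 of 8 interferon gamma genes (Ifngr1, Jak2 and Socs1) were higher in both libraries, and 0 of 9 class I genes were higher. In myeloid-like cells 3 of 8 were higher and 1 of 8 was lower in each library, against 9.56% and 11.7% of all genes lower, and 0 of 9 class I genes passed 2-fold. Of all genes, 12.7% and 11.5% were higher in B-like, 21.6% and 20.7% in ILC-like and 20.3% and 22.2% in myeloid-like cells. In gated endothelial cells 5 processing genes (Ctsl, Lgmn, Nfya, March8 and Irf8) were higher than in T-like cells and 2 (Ctss and Irf4) lower in both libraries, Cd40 and Icosl were higher and Cd86 and Cd274 lower, and Nlrc5 and the immunoproteasome gene Psmb9 were the 2 of 9 class I genes that were lower, against 39.5% and 40.8% of all genes higher and 8.98% and 9.22% lower.

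Between the libraries 0 genes of these 5 lists passed 2-fold in B-like or ILC-like cells. Of all genes 1.39% were higher and 1.05% lower in B-like cells, and 0.933% were lower in ILC-like cells. In myeloid-like cells H2-DMb2, Cd83, Irf8 and Icosl were at least 2-fold lower in Flcn iΔEC, beside the members, against 4.55% of all genes. The libraries drew these cells from different sub-clusters, whose part in this was not tested. In gated endothelial cells the proteases Ctsl, at 380 and 788 CPM, and Lgmn, at 67.8 and 232 CPM, and Nlrc5 were at least 2-fold higher in Flcn iΔEC, against 3.21% of all genes. The make-up of the gate differed, with 39 and 127 cells in the Lcn2, 18 and 76 in the Aqp8 and 96 and 38 in the Cxcl12 cluster. Its part in these 3 values was not tested. Class I genes were also higher in LEC-like clusters of the Flcn iΔEC library, with 3 of 8 class I genes at least 2-fold higher in the Lcn2 cluster, 4 of 8 in the Aqp8 cluster and 3 of 6 in the Tnxb cluster, against 4.06%, 5.06% and 4.19% of all genes. H2-K1, which encodes a class I heavy chain, was at 282 and 795 CPM in the Lcn2 cluster, 231 and 1779 CPM in the Aqp8 cluster and 697 and 1565 CPM in the Tnxb cluster. B2m, which encodes its light chain, was at 300.1 and 1544 CPM, 398 and 3163 CPM and 765 and 2534 CPM. The class II sum of the Lcn2 and Aqp8 clusters lay between 19.8 and 36.4 CPM in both libraries, and no member had enough counts there. That of the Tnxb cluster was 55.9 and 309.8 CPM, with 90.6% of the latter in 1 cell.

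The genes with the pattern most like the class II sum were found over 26 points, each a class or cluster in a library, by Pearson's r of log2 CPM values among 12554 genes. The points share libraries and droplets, so r is a description. H2-DMb2 (0.937) and Cd83 (0.936) came first, followed by Irf5 (0.925), Napsa (0.92), Ms4a4c (0.915), Ctss (0.913), Sorl1 (0.908), Adssl1 (0.9), Relt (0.897) and Gpr183 (0.894). The 4 members that make up the sum ranged from 0.99 for H2-Ab1 to 0.997 for H2-Eb1, values that were fixed in part by their place in it. Members outside the sum ranged from 0.847 for H2-Ob and 0.888 for H2-Oa over 0.911 for Ciita to 0.939 for H2-DMb1.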

How the data were processed

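CD31+ cells of the mesentery at P8 were measured in 2 libraries, 1 control and 1 Flcn iΔEC, by a droplet-based 3′ kit. The authors aligned the reads with Cell Ranger 3.0 (mm10 in the submitters' processing notes), which also removed low-quality sequences and amplification duplicates. The deposited values are raw UMI counts per gene and cell, without normalization.

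All deposited cells were kept, since the study's methods name no cutoffs. They were clustered with Seurat 5.3.0 (R 4.3.3) after anchor integration of both libraries, with 2000 variable features, 30 dimensions and a resolution of 0.8, and without the 9 members and the listed pathway genes among the features. To be named, a cluster needed 3 fixed markers that 20% or more of its cells detected, and a share of 0.5 of the markers raised 2-fold. This gave 23 clusters. Gated endothelial cells and myeloid-like cells were clustered again. Of the 1189 gated cells, 6 lay in immune clusters. Scrublet (scanpy 1.11.5) called 142 and 37 doublets, which were kept. T-like cells served as background within each library and were not compared between libraries.

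Counts were summed per library and class in Python 3.11.15 (scipy 1.17.1) and divided by the UMIs of those cells. Levels have exact Poisson intervals, shares exact Clopper-Pearson intervals and ratios exact conditional binomial intervals, at 95%. Shares of cells were also computed after thinning cells of at least 2000 UMIs to that number. Comparisons over all genes used genes with at least 50 summed counts, after adding 1 count, and a 2-fold limit, with no test, and these steps were tested on simulated counts. The named genes were the 9 members, genes of 5 lists fixed by name (other class II genes, class II processing and regulation, interferon gamma axis, costimulation and class I) and the 10 genes most like the class II sum. For the last, genes with at least 200 counts were ranked over classes of at least 20 cells. The members and lists were chosen with earlier results of these data known. A few genes of the lists are not reported here. Positions are from GENCODE and promoter sequences from RefSeq.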

Additional observations from a re-analysis of the deposited data

How the results depend on the processing

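Each value is a log2 ratio of the class II sum, and no paired analysis was possible because each genotype had 1 library and no result came from a test. Of the alternatives, 30 stayed within the counting interval of the reported value, 55 moved outside it and 6 reversed, and the cause was not tested. Flcn iΔEC over control in B-like cells was 0.13, and moved to 0.14 at a resolution of 1.6, 0.19 when scaled without mitochondrial, ribosomal protein and hemoglobin genes, 0.34 as UMIs per cell and 0.09 as the mean of the cells' own CPM. In myeloid-like cells it was -1.77, and moved to -1.99 with only deeper cells of low mitochondrial share, -1.64 without called doublets, -1.89 when scaled without those genes, -1.39 as UMIs per cell, -0.58 as the mean over cells, -2.39 with gates on marker UMIs and -1.69 with all variable features. In endothelial cells it was -0.62, and moved to -0.58, -0.19 and -0.30 under the other scaling, UMIs per cell and mean over cells.

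ILC-like over T-like cells was 5.58 in control and 5.29 in Flcn iΔEC. It moved to 4.73 and 4.93 without integration, 4.97 and 4.96 at a resolution of 1.6, 4.56 and 4.77 with the cell filter, 7.19 and 6.60 without doublets, 5.24 and 4.91 under the other scaling, 5.80 and 5.39 as UMIs per cell, 6.08 and 5.88 as the mean over cells and 6.25 and 5.62 with marker gates, and in the control library to 5.51 at a resolution of 0.4. Endothelial over T-like cells was 2.17 and 1.64. It moved to 1.31 and 1.27 without integration, 1.15 and 1.12 with the cell filter, 3.78 and 2.96 without doublets, 1.70 and 1.16 under the other scaling, 3.58 and 3.42 as UMIs per cell, 2.03 and 1.95 as the mean over cells and 3.12 and 2.07 with marker gates. At a resolution of 0.4 it moved to 2.10 in the control library and at 1.6 to 1.81 in the Flcn iΔEC library. Doublets were removed from all classes, T-like cells included, and both ratios to T-like cells rose without them.

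The following alternatives were chosen after seeing the data. With T-like cells free of 11 other cell type genes as background, ILC-like cells were at 7.48 and 7.68 and endothelial cells at 4.08 and 4.03. ILC-like cells without B cell UMIs were at 5.34 in the control library, and myeloid-like cells without the Mcpt8 sub-cluster at -1.62. Over endothelial cells with no UMI of the 5 ILC genes, Flcn iΔEC over control was -2.53 (-0.88 without 1 control cell), and endothelial over T-like cells reversed to -0.61 (-2.25 without that cell) and -3.05. Without the clusters led by Glycam1 and Marco the 3 endothelial values reversed to 0.08, -1.25 and -1.08. Myeloid-like levels rest on 93 and 54 cells of about 2000 UMIs, and members such as Ciita and H2-Ob had too few UMIs in most endothelial clusters for a difference to be detectable at this depth.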

Other observations

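Cells of endothelial clusters that failed the endothelial gate (109 and 176 cells in the control and the Flcn iΔEC library) had a class II sum of 3307 and 1512 CPM. H2-Oa was at 41.7 and 17 CPM and H2-Ob at 27.5 and 9.09 CPM in them. Their level of the 5 ILC genes was 420 and 172 CPM, that of Glycam1 8802 and 1620 CPM, and that of Ms4a1 95.4 and 31.6 CPM.

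Fibroblast-like cells (30 and 31) were at 534.6 and 489 CPM of the class II sum, erythroid-like cells (34 and 56) at 349.8 and 19.4 CPM, and a cluster led by enterocyte genes (33 and 70 cells) at 96.1 and 54.9 CPM. After thinning, 16.7% and 19.4% of fibroblast-like, 9.38% and 5.88% of erythroid-like and 9.38% and 8.7% of the enterocyte-gene cells had a class II UMI, against 17% and 11.9% of T-like cells.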
